A study of Mus musculus with 12 samples.

Results

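The comparison described here sets 2 RNA-seq libraries of clone 2 grown in collagen I gels against 2 control libraries grown in the same kind of gel. Clone 2 is a single clone of the mouse mammary carcinoma line 4T1 that was selected after nucleofection with Cas9 and guide RNAs against Etv4, whereas the control libraries come from pools of clones nucleofected with a control guide. Every gene expressed well enough to be tested was included, which left 13763 of the 31017 genes in the count table, measured in 4 of the 12 libraries of the series. The 8 other libraries are clone 1 of the same knockout in collagen, and both clones and the control pools on plastic, with 2 libraries a group. Cells in collagen (3D) were embedded in droplets of gel at either of 2 collagen concentrations that the labels do not assign to libraries, and were released with collagenase and frozen before RNA extraction, whereas the protocol gives no such steps for cells on plastic (2D). The labels number the libraries as replicates without saying whether they are separate cultures, so the p-values below measure the spread between these libraries only.

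Etv4 encodes an ETS transcription factor of the PEA3 group, together with Etv1 and Etv5, which acts downstream of receptor tyrosine kinases and ERK and is studied in mammary tumours for its part in invasion and in the expression of matrix proteases. Collagen I is the main fibrillar protein of the tumour stroma, and cells in it both degrade it and secrete matrix of their own. Interferon-stimulated genes, a group that comes up below, are switched on by the STAT and IRF factors downstream of interferon receptors and encode antiviral effectors, guanylate-binding GTPases and parts of antigen presentation.

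Clone 2 in 3D was sequenced to 27214018 and 26525130 counts, and the control in 3D to 27104578 and 28266688 counts. The noncoding transcript Gm26917 took 10.89% to 14.95% of the counts in the 3D libraries and 1.754% to 2.033% in the 2D libraries. Marker sums use total counts alone, without the TMM scaling factors of the other CPM (counts scaled to a common library size). Those factors were 1.051 and 1.034 in clone 2, against 1.012 and 0.988 in control, so small differences between sums depend on the scaling. The 9 markers of mammary carcinoma cells, among them Epcam, Krt8 and Cdh1, were all detected. They summed to 3550 and 3540 CPM in clone 2, against 3490 and 3510 CPM in control. Markers of leukocytes summed to 9.41 and 8.78 CPM in clone 2, against 9.67 and 7.61 CPM in control, those of fibroblasts to 24.9 and 25.7 CPM in clone 2, against 22.6 and 21.9 CPM in control, and those of endothelial cells to 3.82 and 3.88 CPM in clone 2, against 4.17 and 4.74 CPM in control. Of the 10 leukocyte markers 7 and 5 had no count in the clone 2 libraries, and 5 and 5 had none in the control libraries.

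The targeted gene was close to the control level in collagen. Etv4 had 86.6 and 91.5 CPM in clone 2, against 94.7 and 99.4 CPM in control. Both clone 2 libraries lay below both control libraries, but the difference was small (log2 fold change -0.12 ± 0.06 SE, adjusted p = 0.116 by edgeR's quasi-likelihood test with Benjamini-Hochberg adjustment, as for every adjusted p below). With the spread estimated from the 3D libraries alone it passed the threshold of 0.05 (-0.13, adjusted p = 0.0128), and the adjusted p over all alternatives spanned 0.0115 to 0.545. On plastic Etv4 had 49.3 and 46.0 CPM in clone 2, against 78.1 and 76.0 CPM in the 2D control (-0.69, adjusted p = 2.23e-08), so that the difference from control was itself different between the formats (0.57 ± 0.09 on the log2 scale, 3D minus 2D, adjusted p = 5.46e-05). Counts summed over a whole gene do not read the edited site, and these values therefore neither check nor contradict the label.

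Among the other PEA3 factors, Etv1 had 131 and 125 CPM in clone 2, against 120 and 110 CPM in control (0.16 ± 0.06, adjusted p = 0.0463). Its groups did not overlap, but the call was lost without either clone 2 library (0.12, adjusted p = 0.346, without replicate 1; 0.19, adjusted p = 0.107, without replicate 2) and without control replicate 2 (0.09, adjusted p = 0.471), and the adjusted p spanned 0.00198 to 0.634 over all alternatives. Etv5 had 62.6 and 67.3 CPM in clone 2, against 66.9 and 72.0 CPM in control, with overlapping groups and no call (-0.10 ± 0.07, adjusted p = 0.293).

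Across the transcriptome 4023 genes passed the threshold, which is 29.2% of those tested, with 1631 higher in clone 2 (11.9%) and 2392 lower (17.4%). Most of these differences were modest, since 145 genes were at least 2-fold higher (1.05%) and 243 at least 2-fold lower (1.77%). The libraries of the 2 groups did not overlap for 9968 genes (72.4%). Most genes named below were picked for a small p or a large change. Groups without overlap in them therefore follow largely from the choice and add no further support. The count of called genes depended on each library: it was 2436 without clone 2 replicate 1, 2461 without clone 2 replicate 2, 2590 without control replicate 1 and 2429 without control replicate 2.

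The largest changes were ranked among called genes with a mean of at least 5 CPM over the 4 libraries. Such genes also needed groups without overlap and a symbol that is not provisional, such as a Gm number or a Rik name. Among them the largest fall was in Sparc, a secreted collagen-binding matricellular glycoprotein on chromosome 11 (chr11:55394500-55423183, minus strand, mm10). Sparc had 1.64 and 1.42 CPM in clone 2, against 64.6 and 66.6 CPM in control (-5.41 ± 0.10, adjusted p = 2.52e-23). The knockout clone 1 in collagen was close to control, with 75.9 and 79.9 CPM, and the direct difference of clone 2 from clone 1 was -5.66 on the log2 scale. Slc39a4, which encodes the zinc importer ZIP4, had 1.01 and 1.28 CPM in clone 2, against 18.2 and 17.7 CPM in control (-3.97 ± 0.22, adjusted p = 4.37e-13). Clone 1 was low here as well, with 0.418 and 0.226 CPM. Stc1, a secreted glycoprotein hormone, had 1.26 and 1.35 CPM in clone 2, against 19.4 and 19.95 CPM in control (-3.91 ± 0.16, adjusted p = 5.05e-16), while clone 1 stood above control at 41.5 and 43.0 CPM.

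Several of the other large falls were in genes for proteins of the cell surface and of the matrix. Otop1, a proton channel, had 0.594 and 0.438 CPM in clone 2, against 10.4 and 10.7 CPM in control (-4.33 ± 0.27, adjusted p = 3.18e-12). Podnl1, a small leucine-rich proteoglycan, had 3.60 and 3.10 CPM in clone 2, against 27.9 and 26.1 CPM in control (-3.01 ± 0.14, adjusted p = 1.89e-14). Mmp13, a collagenase that cleaves fibrillar collagens, had 2.13 and 2.66 CPM in clone 2, against 14.4 and 15.7 CPM in control (-2.65 ± 0.18, adjusted p = 8.85e-12). In each of these genes both clone 2 libraries lay far below both control libraries, where the rule that chose them required groups without overlap. Atp1b1, the beta chain of the Na,K-ATPase, had 0.909 and 1.17 CPM in clone 2, against 12.2 and 10.5 CPM in control (-3.44 ± 0.20, adjusted p = 1.29e-12), although 18.7% of its exons overlap a gene on the other strand, and whether the counting used strand is not given in the sources used here. The remaining members of the 12 largest falls were Nipal4 (-3.82 ± 0.24), the ubiquitin-conjugating enzyme gene Ube2ql1 (-3.74 ± 0.24), Prl2c2 (-2.67 ± 0.18), Fam129a (-2.63 ± 0.17) and the beta-arrestin gene Arrb1 (-2.59 ± 0.19). Prl2c2 is uncertain because it has near-identical copies among the proliferin genes.

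In collagen 10 genes with at least 5 CPM in control were reduced to under 10% of that level in clone 2, and no gene was reduced in this way in control. Besides Sparc, Otop1, Slc39a4, Stc1, Nipal4, Ube2ql1 and Atp1b1 these were Serpine2, Gem and Gramd1b. Serpine2, which encodes the secreted protease inhibitor nexin-1, gave 14 counts in the 2 clone 2 libraries together, against 522 in the control libraries (0.210 and 0.292 CPM in clone 2, against 9.52 and 9.35 CPM in control, -5.21 ± 0.31, adjusted p = 1.57e-12). Gem, a small GTPase, gave 29 counts in clone 2, against 326 in control (-3.50 ± 0.31). Gramd1b, a sterol carrier, gave 27 counts in clone 2, against 371 in control (-3.78 ± 0.35).

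**Figure D1:**
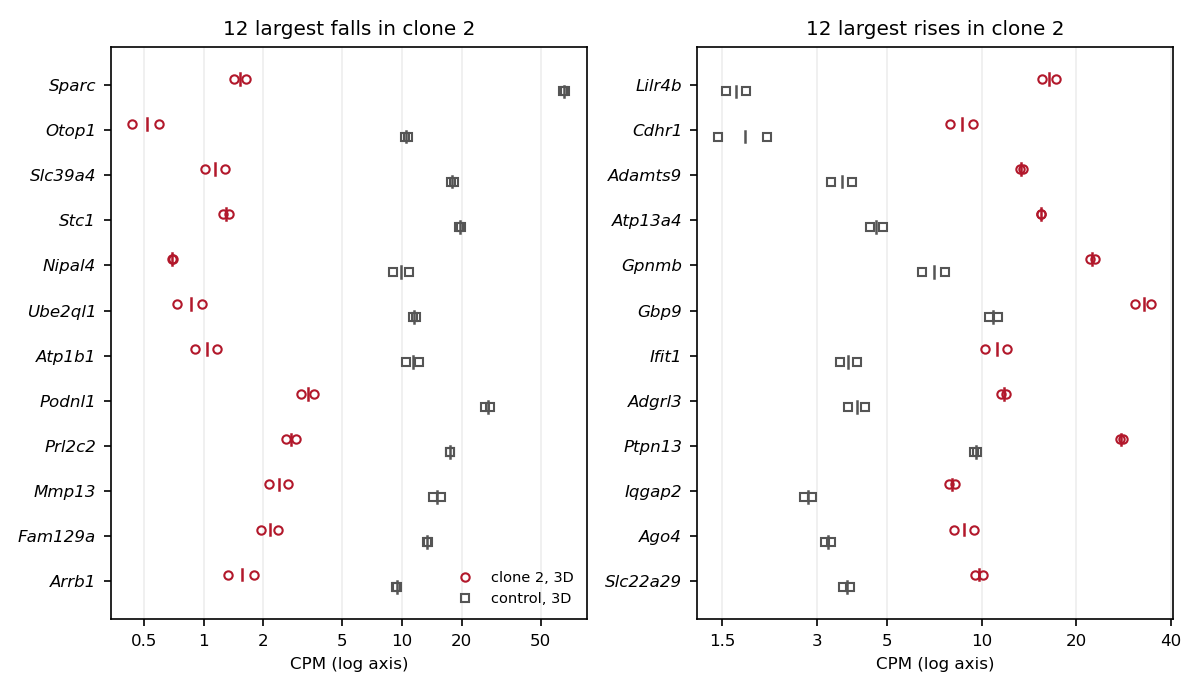
Expression in CPM, on a log axis, of the 12 genes that fell most (left) and the 12 that rose most (right) in clone 2 in collagen, with 1 point for each library and a short line at the mean of each group (2 libraries each). The groups do not overlap for any of these genes, which the rule that chose them required, and Sparc shows the widest gap, with 1.64 and 1.42 CPM in clone 2 against 64.6 and 66.6 CPM in control.

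Under the same rules of ranking the largest rise was in Lilr4b, a member of the leukocyte immunoglobulin-like receptor family, with 17.2 and 15.5 CPM in clone 2, against 1.79 and 1.54 CPM in control (3.30 ± 0.20, adjusted p = 2.94e-12). Both clone 2 libraries lay far above the control, but near-identical relatives of this gene make its count uncertain, and the summed leukocyte markers given above overlapped between the groups. Cdhr1, a cadherin best known from photoreceptors, had 7.94 and 9.38 CPM in clone 2, against 1.46 and 2.08 CPM in control (2.29 ± 0.23, adjusted p = 1.80e-08). Gpnmb, a transmembrane glycoprotein, had 22.9 and 22.03 CPM in clone 2, against 7.66 and 6.45 CPM in control (1.67 ± 0.16, adjusted p = 5.19e-09). Ptpn13, a protein tyrosine phosphatase, had 27.5 and 28.1 CPM in clone 2, against 9.70 and 9.46 CPM in control (1.54 ± 0.12, adjusted p = 2.50e-10). In these 3 genes, too, both clone 2 libraries were above both control libraries, as the rule that chose them required.

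The interferon-inducible genes Gbp9 (1.58 ± 0.13) and Ifit1 (1.56 ± 0.18) were also among the 12 largest rises. The others were the secreted metalloprotease gene Adamts9 (1.89 ± 0.20), the P-type ATPase gene Atp13a4 (1.73 ± 0.21), the adhesion receptor gene Adgrl3 (1.55 ± 0.18), Iqgap2 (1.52 ± 0.18), the Argonaute gene Ago4 (1.44 ± 0.20) and the organic anion transporter gene Slc22a29 (1.40 ± 0.16). Of the exons of Adamts9, 12% overlap a gene on the other strand. The rises were smaller than the falls, since the twelfth largest rise was 1.40 on the log2 scale, whereas the twelfth largest fall was 2.59.

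A further feature of clone 2 concerned a whole chromosome. Of the 780 genes tested on chromosome 1, 544 were lower in clone 2 (69.7%) and 3 were higher, against 17.4% and 11.9% of all genes. Their median log2 fold change was -0.532, with quartiles of -0.721 and -0.345, whereas the 12983 other genes had a median of 0.0208. The shift ran along the whole chromosome: all 19 windows of 10 Mb that held at least 10 tested genes had a negative median, between -0.655 and -0.282. Of the 234 windows elsewhere in the genome 2 were below -0.3, both in the first 20 Mb of the X chromosome. No other chromosome had a median outside -0.134 (chromosome 17) to 0.152 (chromosome 6).

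The shift was alike in both clone 2 libraries, where chromosome 1 genes stood at a median of 71.2% and 70.6% of the mean control level in 3D, against 101% and 99.5% in the control libraries themselves. In clone 1 in 3D the same genes were at 96.6% and 95.9% of control. On plastic they were at 83.7% and 82.7% in clone 2, against 100% and 100% in control, with a median log2 fold change of -0.294 and 378 genes lower. The difference between formats had a median of -0.246 (3D minus 2D) on chromosome 1, with 231 genes called lower and 18 higher. Serpine2, Atp1b1 and Fam129a lie on chromosome 1, and their falls were far larger than the chromosome's median.

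**Figure D2:**
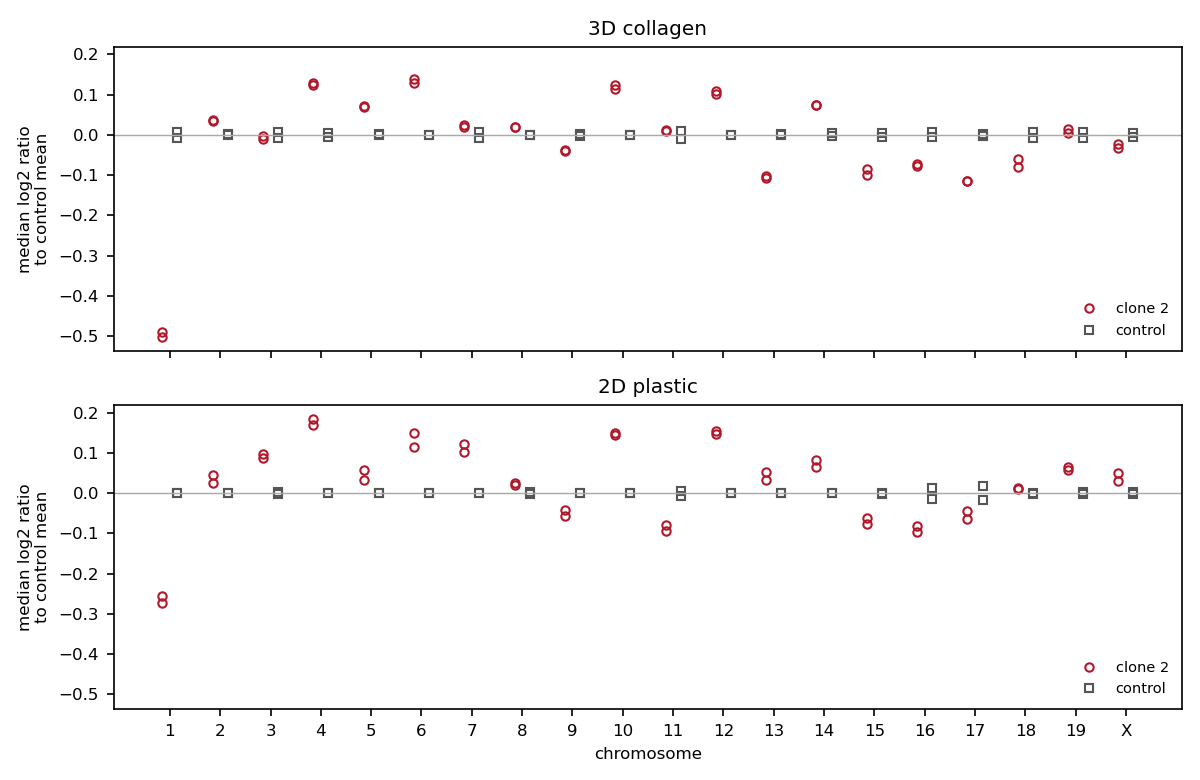
Median log2 ratio of each library to the mean of the control libraries of the same format, over all tested genes of each chromosome, with clone 2 and control drawn side by side and 1 point for each library (upper panel 3D, lower panel 2D). Chromosome 1 stands apart in clone 2, at -0.490 and -0.502 in 3D and at -0.256 and -0.274 in 2D.

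Interferon-stimulated genes were higher in clone 2 in collagen. Of 60 effectors listed 52 could be tested. Of these 29 rose (55.8%) and 3 fell (5.77%), against 11.9% and 17.4% of all genes. The 3 that fell were Lgals9, Sp100 and Tor3a, named after their values were seen. The median log2 fold change was 0.42, against 0.00384 for all genes. The other 20 tested effectors did not pass the test, and the 6 listed genes that were too low to be tested include Mx1 and Ifit3. Without the members on chromosome 1, 29 of 49 rose and 1 fell. The count of risen members was 19 without clone 2 replicate 1, 15 without clone 2 replicate 2, 16 without control replicate 1 and 19 without control replicate 2.

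The promoters of these genes are shown because many carry the letters to which IRF and STAT factors bind. The core of the interferon-stimulated response element, written as GAAA, any 2 bases and GAAA again, was searched on both strands of RefSeq promoter windows of the GRCm38.p6 build, which run from 250 bases before to 50 bases after each start site, and overlapping matches were each counted. It was present in 24 of 58 promoters (41.4%) of the 46 effector genes that could be matched. Of the promoters of the 10142 tested genes that could be matched, 387 of 12933 held it (2.99%). The list was made of known interferon-stimulated genes, so its share of such matches follows from the list and says nothing about clone 2. The share was 7.56% for genes at least 2-fold higher in clone 2 and 3.33% for those at least 2-fold lower. A match describes letters in a window and is not a binding site shown by these data. Stretches of 120 bases with the matches in capitals, on the strand of the gene, are given for 5 of the genes that rose, picked after their values were seen, Ifit1 chr19:34640739-34640858 (+ strand, -150 to -31 from the start site), Ddx60 chr8:61927996-61928115 (+ strand, -91 to 28 from the start site), Gbp2 chr3:142620549-142620668 (+ strand, -114 to 5 from the start site), Isg15 chr4:156200826-156200945 (- strand, -127 to -8 from the start site) and Irgm1 chr11:48871383-48871502 (- strand, -82 to 37 from the start site).
Ifit1: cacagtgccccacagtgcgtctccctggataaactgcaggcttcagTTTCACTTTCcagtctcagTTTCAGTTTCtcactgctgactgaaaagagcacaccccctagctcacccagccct
Ddx60: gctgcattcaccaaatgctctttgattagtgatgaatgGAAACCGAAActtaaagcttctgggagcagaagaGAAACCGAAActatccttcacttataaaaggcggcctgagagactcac
Gbp2: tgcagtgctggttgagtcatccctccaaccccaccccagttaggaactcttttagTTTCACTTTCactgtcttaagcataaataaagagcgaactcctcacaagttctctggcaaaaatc
Isg15: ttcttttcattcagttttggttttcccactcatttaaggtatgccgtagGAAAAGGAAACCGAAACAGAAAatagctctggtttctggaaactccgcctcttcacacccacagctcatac
Irgm1: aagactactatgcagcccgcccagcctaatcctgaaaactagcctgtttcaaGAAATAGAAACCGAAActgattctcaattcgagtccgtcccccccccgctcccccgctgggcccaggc
These 5 genes were taken from the risen effectors whose promoter holds a match, so a match in each of them follows from the choice. The capitals fall within 150 bases of the start site in each of these 5 genes. In Ifit1 and Gbp2 the matches read on the opposite strand, and in Isg15 and Irgm1 neighbouring matches run into each other. The palindrome TTCNNNGAA, the core to which STAT dimers bind, was found in 17.2% of the effector promoters and in 6.98% of all.

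Ifit1, which encodes a protein that binds viral RNA, had 12.03 and 10.3 CPM in clone 2, against 3.54 and 4.01 CPM in control (1.56 ± 0.18, adjusted p = 1.56e-07). Ddx60, a helicase linked to antiviral RNA sensing, had 26.6 and 25.2 CPM in clone 2, against 11.6 and 12.7 CPM in control (1.09 ± 0.12, adjusted p = 9.35e-08). Oasl2, of the oligoadenylate synthetase family, had 36.2 and 32.2 CPM in clone 2, against 15.8 and 15.4 CPM in control (1.14 ± 0.12, adjusted p = 4.64e-08). Each of these genes was at least 2-fold higher in clone 2 with no overlap between groups. Parp14, a mono-ADP-ribosyltransferase, had 59.7 and 58.9 CPM in clone 2, against 38.4 and 34.9 CPM in control (0.69 ± 0.08, adjusted p = 3.51e-07).

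Further effectors were picked after their values were seen. Gbp2, a guanylate-binding GTPase, had 18.1 and 17.5 CPM in clone 2, against 9.12 and 9.96 CPM in control (0.90 ± 0.13, adjusted p = 6.74e-06). Isg15, a ubiquitin-like modifier, had 8.32 and 10.8 CPM in clone 2, against 5.11 and 5.45 CPM in control (0.86 ± 0.20, adjusted p = 0.00134). Its clone 2 libraries differ from each other, and without clone 2 replicate 2 the value was 0.66 with an adjusted p of 0.102. Some effectors are scarce in this line: Rsad2, which encodes the antiviral enzyme viperin, had 0.909 and 0.766 CPM in clone 2, against 0.109 and 0.215 CPM in control (2.33 ± 0.64, adjusted p = 0.00697), and that call was lost without clone 2 replicate 1 (2.20, adjusted p = 0.0916), without control replicate 1 (1.93, adjusted p = 0.138) and without control replicate 2 (2.87, adjusted p = 0.0526). Reads of the Ifit, Oas and Gbp genes can be split between close relatives, so single members of these families are less certain than the list.

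**Figure D3:**
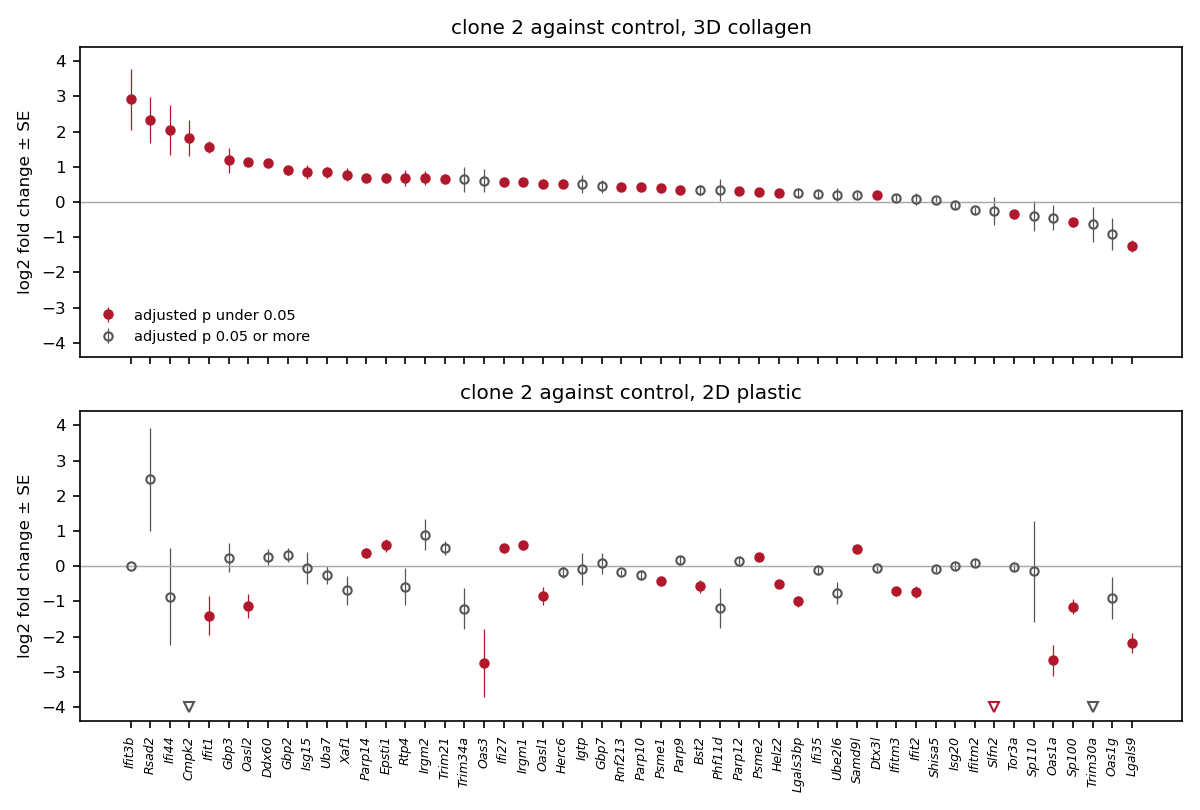
Log2 fold change of clone 2 against control, with its SE, of the 52 tested interferon effectors in 3D (upper panel) and in the same order in 2D (lower panel), where filled points passed an adjusted p of 0.05 and triangles mark 3 genes drawn at the axis limit of -4. In 3D 29 genes rose and 3 fell, whereas in 2D 6 rose and 14 fell.

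The factors that carry the interferon signal moved less evenly. Of 18 signalling genes 8 rose (44.4%) and 2 fell (11.1%), against 11.9% and 17.4% of all genes, with a median of 0.20. Without the member on chromosome 1 the count was 8 and 1 of 17. Irf9, a DNA-binding factor that acts downstream of interferon receptors, had 15.9 and 16.8 CPM in clone 2, against 10.9 and 10.2 CPM in control (0.63 ± 0.12, adjusted p = 0.000177). Stat2 had 33.5 and 31.1 CPM in clone 2, against 22.7 and 22.8 CPM in control (0.50 ± 0.10, adjusted p = 0.000330), and the kinase gene Jak2 had 221 and 220 CPM in clone 2, against 168 and 166 CPM in control (0.40 ± 0.05, adjusted p = 7.72e-07). In all of these the groups did not overlap, which also held for 72.4% of all genes. The transcription factor gene Irf7 had 6.29 and 5.14 CPM in clone 2, against 2.55 and 2.76 CPM in control (1.11 ± 0.24, adjusted p = 0.000999), and it lost its call without clone 2 replicate 1 (0.95, adjusted p = 0.0586). The count of 8 risen signalling genes was 4 without clone 2 replicate 1, 5 without clone 2 replicate 2, 4 without control replicate 1 and 5 without control replicate 2, and it was 5 both when the genes of chromosome 1 were left out of the fit and when the median of each chromosome was removed.

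Among 10 tested sensors of foreign RNA and DNA 5 rose and 1 fell, with a median of 0.32, and 3 rose without clone 2 replicate 1. In the fit of all libraries the rises were 50% and the fall 10% of the sensors, against 11.9% and 17.4% of all genes. The sensor gene that fell lies on chromosome 1. Ifih1, the receptor MDA5 for long double-stranded RNA, had 39.2 and 40.6 CPM in clone 2, against 28.1 and 25.2 CPM in control (0.58 ± 0.10, adjusted p = 3.43e-05). Ddx58, the receptor RIG-I, had 72.5 and 67.2 CPM in clone 2, against 51.6 and 50.3 CPM in control (0.46 ± 0.10, adjusted p = 0.000637). Both receptors were higher in each clone 2 library than in either control library. Transcripts of the interferons themselves were at or near 0: Ifnb1 gave 1 and 0 counts in clone 2, against 0 and 0 in control, and Ifng gave none in any of these 4 libraries. A count of 0 allows up to 0.105 and 0.109 CPM in the clone 2 libraries and up to 0.109 and 0.107 CPM in the control libraries, by counting error alone. Ifne gave 6 and 4 counts in clone 2, against 0 and 2 in control, and Ifnk gave 2 and 2 counts in clone 2, against 3 and 4 in control. These ligands were chosen after the values of their target genes were seen, and whether they play a part in the rise was not tested.

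Inflammatory genes downstream of NF-kB were higher as well. Of 27 tested targets and chemokines 14 rose (51.9%) and 3 fell (11.1%), against 11.9% and 17.4% of all genes, with a median of 0.35. Fewer rose whichever library was left out. Cxcl1, a neutrophil-attracting chemokine, had 174 and 175 CPM in clone 2, against 98.2 and 102 CPM in control (0.80 ± 0.05, adjusted p = 1.06e-11). Tnfaip3, the NF-kB inhibitor A20, had 508 and 514 CPM in clone 2, against 291 and 301 CPM in control (0.79 ± 0.05, adjusted p = 1.58e-11). The adhesion molecule gene Vcam1 had 36.4 and 39.98 CPM in clone 2, against 22.4 and 23.5 CPM in control (0.74 ± 0.09, adjusted p = 2.56e-07). In all 3 genes the clone 2 libraries stood clear of the control.

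Within the same list, Cxcl16, a chemokine made as a membrane protein, had 143 and 131 CPM in clone 2, against 82.9 and 79.8 CPM in control (0.75 ± 0.06, adjusted p = 1.68e-10), with 18.3% of its exons overlapping a gene on the other strand. The next genes were picked after their values were seen. Lcn2, an iron-sequestering acute phase protein, had 4.76 and 6.35 CPM in clone 2, against 1.42 and 0.896 CPM in control (2.26 ± 0.32, adjusted p = 6.14e-06), and the T-cell chemokine gene Ccl5 had 7.20 and 6.71 CPM in clone 2, against 2.01 and 1.86 CPM in control (1.84 ± 0.25, adjusted p = 1.65e-06). Cxcl3 ran against the list, with 0.315 and 0.328 CPM in clone 2, against 1.60 and 1.61 CPM in control (-2.30 ± 0.43, adjusted p = 0.000172). The chemokine gene Cxcl2 fell too, but its call was lost without clone 2 replicate 1 (-2.585). The cytokine Il1a gave 759 and 720 counts in clone 2, against 402 and 391 in control, and Il1b gave 74 and 75 counts in clone 2, against 27 and 18 in control. Counts of both cytokines were higher in each clone 2 library than in either control library.

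Complement and acute phase genes gave 3 rises (37.5%) and no fall among 8 tested, against 11.9% and 17.4% of all genes. C3, the central complement protein, had 152 and 151 CPM in clone 2, against 70.1 and 64.9 CPM in control (1.17 ± 0.07, adjusted p = 6.86e-13). Cp, the copper-carrying ferroxidase ceruloplasmin, had 194 and 186 CPM in clone 2, against 97.7 and 93.3 CPM in control (0.99 ± 0.06, adjusted p = 1.97e-12). Both were about equally raised in the 2 clone 2 libraries.

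Among 19 tested genes of MHC class I antigen presentation 3 rose (15.8%) and 7 fell (36.8%), against 11.9% and 17.4% of all genes, with a median of -0.06, and none lies on chromosome 1. The 3 rises were 1 without clone 2 replicate 1, without control replicate 1 or without control replicate 2, and 2 without clone 2 replicate 2. Nlrc5, the transactivator of class I genes, had 10.2 and 10.4 CPM in clone 2, against 27.6 and 27.3 CPM in control (-1.41 ± 0.12, adjusted p = 5.4e-10). B2m, the invariant light chain, had 265 and 258 CPM in clone 2, against 362 and 335 CPM in control (-0.41 ± 0.05, adjusted p = 6.34e-07). The chaperone gene Calr had 330 and 354 CPM in clone 2, against 422 and 435 CPM in control (-0.32 ± 0.05, adjusted p = 1.23e-05). Named after their values were seen, the heavy chain genes H2-K1 (-0.30) and H2-D1 (-0.36) fell too, whereas H2-T23 rose (0.55), although reads of these polymorphic and similar genes can be split between copies.

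Genes of cell division were lower in clone 2 in collagen. Of 23 DNA replication genes 18 fell (78.3%) and none rose, against 17.4% and 11.9% of all genes, with a median of -0.33. Without chromosome 1 the count of falls was 16 of 21. Mcm4, a subunit of the replicative helicase, had 151 and 152 CPM in clone 2, against 224 and 226 CPM in control (-0.57 ± 0.05, adjusted p = 6.72e-09), and Mcm5, another, had 170 and 179 CPM in clone 2, against 250 and 248 CPM in control (-0.51 ± 0.05, adjusted p = 3.94e-08). Mcm3 had 102 and 105 CPM in clone 2, against 195 and 204 CPM in control (-0.95 ± 0.05), and Mcm6 had 151 and 156 CPM in clone 2, against 290 and 291 CPM in control (-0.92 ± 0.05). Both of these are on chromosome 1, and their falls were larger than its median.

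Of 22 mitosis genes 19 fell (86.4%) and none rose, against 17.4% and 11.9% of all genes, with a median of -0.27. Without chromosome 1 the count of falls was 18 of 21. Plk1, a kinase that drives entry into mitosis, had 60.04 and 63.8 CPM in clone 2, against 84.6 and 89.4 CPM in control (-0.49 ± 0.06, adjusted p = 8.06e-07). Ccnb1, a mitotic cyclin, had 90.9 and 92.3 CPM in clone 2, against 121 and 118 CPM in control (-0.38 ± 0.05, adjusted p = 3.68e-06), and Ccna2 had 199 and 208 CPM in clone 2, against 255 and 269 CPM in control (-0.36 ± 0.05, adjusted p = 4.52e-06). Cenpf, a kinetochore protein gene on chromosome 1, had 146 and 149 CPM in clone 2, against 249 and 236 CPM in control (-0.72 ± 0.07). No clone 2 library reached a control library in any of these genes. In bulk RNA, fewer cells that express such genes and less RNA of them per cell cannot be told apart.

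Of 14 cyclins and inhibitors of the cycle 2 rose and 2 fell (14.3% each), shares near those of all genes. These counts depended on the setting, since 1 rose whichever library was left out, and none rose and 4 fell with the median of each chromosome removed. Cdkn1a, which encodes the kinase inhibitor p21, had 32.5 and 34.4 CPM in clone 2, against 54.7 and 54.3 CPM in control (-0.71 ± 0.10, adjusted p = 4.13e-06), whereas Cdkn1b, which encodes p27, had 159 and 152 CPM in clone 2, against 130 and 125 CPM in control (0.29 ± 0.06, adjusted p = 0.000250). With the median of each chromosome removed Cdkn1b was at 0.14 (adjusted p = 0.0768).

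Genes listed for endoplasmic reticulum stress and ATF4, among them amino acid enzymes, were mostly lower. Of 21 tested, 15 fell (71.4%) and 1 rose (4.76%), against 17.4% and 11.9% of all genes, with a median of -0.36. Without the member on chromosome 1 the count was 14 and 1 of 20. Psat1, an enzyme of serine synthesis, had 79.4 and 79.5 CPM in clone 2, against 133 and 129 CPM in control (-0.73 ± 0.05, adjusted p = 3.06e-11). Asns, asparagine synthetase, had 30.5 and 30.5 CPM in clone 2, against 51.2 and 53.9 CPM in control (-0.79 ± 0.07, adjusted p = 1.52e-09). Shmt2, which feeds the mitochondrial folate cycle, had 106 and 106 CPM in clone 2, against 147 and 146 CPM in control (-0.47 ± 0.05, adjusted p = 6.38e-08). The 2 clone 2 libraries gave nearly the same value in each of these genes. Atf3, on chromosome 1, fell by 0.69 on the log2 scale. Ddit3 and Atf4 were named after their values were seen. Ddit3 went the other way, at 0.43 by DESeq2's Wald test, where it was not called (adjusted p = 0.094). Atf4 itself was little changed, at -0.14 by the same Wald test (adjusted p = 0.058). Both also lost their call whichever library was left out.

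Of 34 nuclear genes of oxidative phosphorylation 18 fell (52.9%) and none rose, against 17.4% and 11.9% of all genes, with a median of -0.23. The 4 with the smallest p, the complex I subunits Ndufa10 (-0.80) and Ndufs1 (-0.76), the complex II subunit Sdhc (-0.78) and the complex IV subunit Cox5b (-0.72), all lie on chromosome 1. Without the members on that chromosome 12 of 28 fell. Of 38 cytosolic ribosomal protein genes 2 were higher (5.26%) and 6 lower (15.8%, near the share of all genes), with a median of -0.05, and 5 of 37 were lower without chromosome 1. Without control replicate 2, 1 was higher and 4 lower. Of 27 genes of hypoxia and glycolysis 8 rose (29.6%) and 6 fell (22.2%), against 11.9% and 17.4% of all genes. Car9, a carbonic anhydrase, had 29.8 and 32.0 CPM in clone 2, against 18.6 and 17.7 CPM in control (0.77 ± 0.11, adjusted p = 2.98e-06), whereas Vegfa, the angiogenic growth factor, had 29.9 and 30.2 CPM in clone 2, against 53.2 and 55.2 CPM in control (-0.85 ± 0.09, adjusted p = 4.30e-08). These standard members of the list thus went opposite ways. The 8 rises were 5, 4, 4 and 5 when clone 2 replicate 1, clone 2 replicate 2, control replicate 1 and control replicate 2 were left out in turn.

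**Figure D4:**
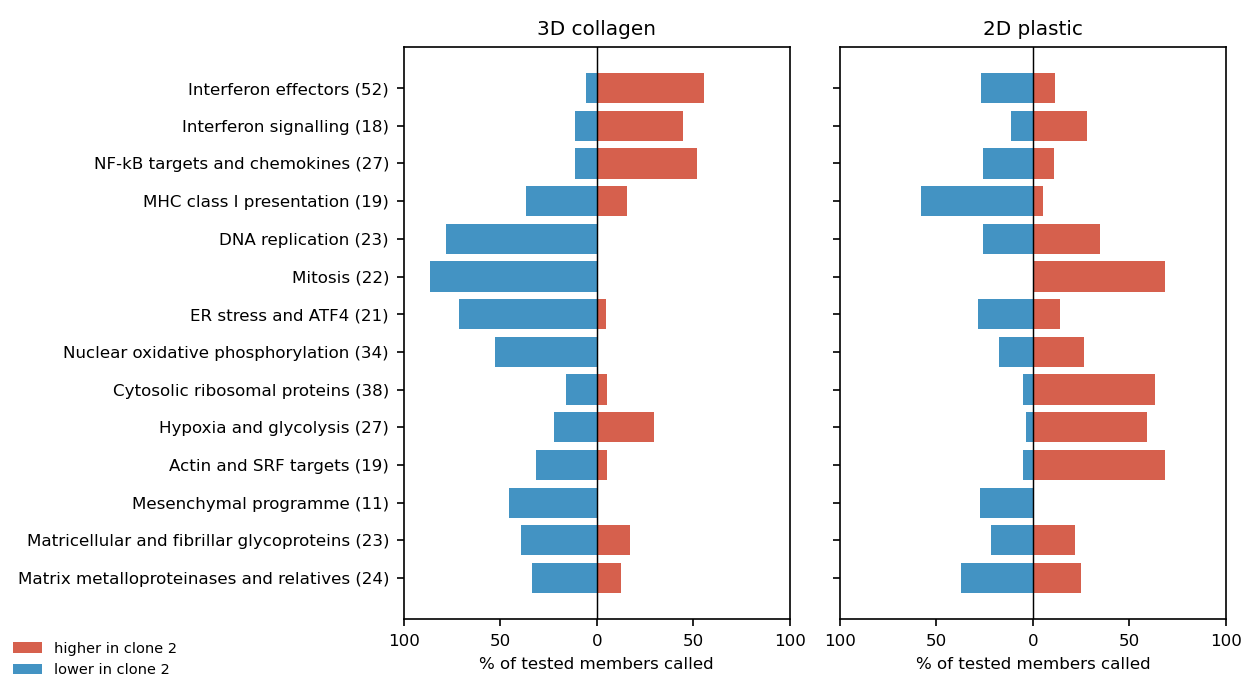
Share of the tested members of each gene list that were called higher (red, to the right) or lower (blue, to the left) in clone 2 than in control, in 3D (left panel) and 2D (right panel), with the number of tested members in parentheses. In 3D the interferon and NF-kB lists lean to higher and the division, ATF4 and oxidative phosphorylation lists to lower, and in 2D mitosis genes lean to higher.

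Of 23 tested matricellular and fibrillar glycoproteins of the secreted matrix 9 fell (39.1%) and 4 rose (17.4%), against 17.4% and 11.9% of all genes, with a median of -0.26, and without the member on chromosome 1 the count was 8 and 4 of 22. Spp1, the secreted phosphoprotein osteopontin, had 74.1 and 73.4 CPM in clone 2, against 240 and 242 CPM in control (-1.71 ± 0.06, adjusted p = 8.31e-18), with 18.8% of its exons overlapping another gene on its own strand. Ltbp3, a latent TGF-beta binding protein, rose and had 754 and 747 CPM in clone 2, against 470 and 482 CPM in control (0.66 ± 0.07, adjusted p = 3.99e-08). Tenascin C, encoded by Tnc and chosen after its value was seen, had 6.29 and 6.24 CPM in clone 2, against 13.9 and 11.6 CPM in control (-1.02 ± 0.15, adjusted p = 4.13e-06). Sparc and Podnl1, described above, belong to the same list.

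Among 24 tested metalloproteases, relatives and inhibitors 8 fell (33.3%) and 3 rose (12.5%), the second share near the 11.9% of all genes. Besides Mmp13, the stromelysin gene Mmp3 had 31.2 and 35.2 CPM in clone 2, against 58.7 and 63.0 CPM in control (-0.88 ± 0.08, adjusted p = 1.25e-09), and the sheddase gene Adam19 had 47.5 and 48.6 CPM in clone 2, against 84.3 and 84.9 CPM in control (-0.82 ± 0.07, adjusted p = 5.60e-10). Adam8 had 17.1 and 15.4 CPM in clone 2, against 32.6 and 32.6 CPM in control (-1.004 ± 0.09, adjusted p = 5.48e-09). The gelatinase gene Mmp9, chosen after its value was seen, went the other way with 130 and 133 CPM in clone 2, against 92.0 and 105 CPM in control (0.42 ± 0.07, adjusted p = 8.70e-05). The inhibitor Timp1, also chosen afterwards, had 13.1 and 12.5 CPM in clone 2, against 21.4 and 21.1 CPM in control (-0.73 ± 0.09, adjusted p = 3.39e-07). Of the genes named from this list Mmp9 and Adamts9 were higher in clone 2 and the others lower.

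Of 18 tested collagen chains 4 rose and 4 fell (22.2% each), against 11.9% and 17.4% of all genes, and 2 fell without clone 2 replicate 1 or without control replicate 2. Col5a1, a chain of the minor fibrillar collagen V, had 4.93 and 4.20 CPM in clone 2, against 21.9 and 22.2 CPM in control (-2.27 ± 0.11, adjusted p = 4.70e-14), and Col6a1 had 12.3 and 11.5 CPM in clone 2, against 24.9 and 25.6 CPM in control (-1.09 ± 0.14, adjusted p = 5.73e-07). Pcolce, an enhancer of procollagen cleavage, had 14.6 and 14.1 CPM in clone 2, against 44.3 and 47.9 CPM in control (-1.68 ± 0.10, adjusted p = 2.78e-12), while Bmp1, the protease that it assists, had 673 and 660 CPM in clone 2, against 473 and 481 CPM in control (0.48 ± 0.05, adjusted p = 3.72e-08). Enhancer and protease thus moved in opposite directions.

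Of 11 tested basement membrane genes 3 rose (27.3%) and 4 fell (36.4%), against 11.9% and 17.4% of all genes. Without the members on chromosome 1 the count was 3 and 1 of 8. Lamb3, a laminin chain gene on chromosome 1, had 182 and 185 CPM in clone 2, against 415 and 424 CPM in control (-1.19 ± 0.05, adjusted p = 3.42e-15), and Lama3, another laminin chain gene, had 317 and 318 CPM in clone 2, against 459 and 426 CPM in control (-0.48 ± 0.05, adjusted p = 7.98e-08). In both genes the clone 2 libraries lay below the control libraries. Of the integrins, which carry cells on these ligands, 3 of 17 rose (17.6%) and 4 fell (23.5%), counts too small to set the list apart from all genes, and 2 rose with any 1 library left out. Itga1, the alpha chain of a collagen receptor, had 2.31 and 3.17 CPM in clone 2, against 10.1 and 9.71 CPM in control (-1.85 ± 0.20, adjusted p = 4.52e-08). Itga6, of the laminin receptors, had 343 and 341 CPM in clone 2, against 493 and 471 CPM in control (-0.50 ± 0.05, adjusted p = 3.70e-08), and Itgb6 had 27.8 and 25.1 CPM in clone 2, against 13.9 and 14.5 CPM in control (0.89 ± 0.10, adjusted p = 6.15e-08).

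Markers of the mesenchymal programme fell where they changed, with 5 of 11 lower (45.5%, against 17.4% of all genes), none higher and a median of -0.39. Without the member on chromosome 1, 4 of 10 were lower, and the median was -0.183. Vim, the intermediate filament vimentin, had 1340 and 1300 CPM in clone 2, against 2320 and 2290 CPM in control (-0.80 ± 0.05, adjusted p = 2.11e-12). Zeb2, a repressor of epithelial genes, had 38.0 and 35.4 CPM in clone 2, against 57.0 and 55.1 CPM in control (-0.61 ± 0.08, adjusted p = 1.90e-06). Both were lower in each clone 2 library than in either control library.

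Epithelial markers were mixed, with 4 of 14 higher (28.6%) and 5 lower (35.7%), against 11.9% and 17.4% of all genes. The count of falls was 3 without clone 2 replicate 1, without clone 2 replicate 2 or without control replicate 2. Krt14, a basal keratin, had 7.59 and 7.84 CPM in clone 2, against 34.8 and 36.4 CPM in control (-2.21 ± 0.10, adjusted p = 5.41e-15). Epcam had 394 and 413 CPM in clone 2, against 292 and 304 CPM in control (0.44 ± 0.05, adjusted p = 1.50e-07), the splicing regulator gene Esrp1 had 211 and 215 CPM in clone 2, against 151 and 148 CPM in control (0.51 ± 0.05, adjusted p = 4.21e-08), and Rab25 had 36.3 and 38.3 CPM in clone 2, against 19.5 and 20.2 CPM in control (0.91 ± 0.10, adjusted p = 1.51e-07). Krt8, a simple epithelial keratin chosen after its value was seen, fell, with 740 and 751 CPM in clone 2, against 851 and 895 CPM in control (-0.23 ± 0.05, adjusted p = 0.000644). Of the 9 carcinoma markers, which overlap this list, 2 rose and 4 fell, and 3 of 8 fell without the member on chromosome 1, 2 fell without clone 2 replicate 1, and 1 fell without clone 2 replicate 2 or without control replicate 2. Of 14 tested tight junction genes 4 rose and 2 fell, 4 of 13 rose and 1 fell without chromosome 1, and 2 rose with any 1 library left out. With all libraries 28.6% of the tight junction genes rose and 14.3% fell, against 11.9% and 17.4% of all genes. Cldn3 had 57.1 and 56.7 CPM in clone 2, against 31.8 and 36.5 CPM in control (0.74 ± 0.07, adjusted p = 1.80e-08), and Cldn4 had 249 and 241 CPM in clone 2, against 161 and 167 CPM in control (0.58 ± 0.06, adjusted p = 6.82e-09). The members that fell were F11r on chromosome 1 (-0.34, and 0.19 with the median of each chromosome removed) and Marveld2 (-0.32, not called without clone 2 replicate 1, without control replicate 1 or with those medians removed).

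Zinc transporters and metallothioneins gave 8 falls and 1 rise among 18 tested, 6 falls among 16 without chromosome 1, and 5 falls without clone 2 replicate 2 or without control replicate 2. With all libraries 5.56% of this list rose and 44.4% fell, against 11.9% and 17.4% of all genes. Besides Slc39a4, the importer gene Slc39a10, on chromosome 1, had 25.5 and 26.3 CPM in clone 2, against 65.2 and 60.8 CPM in control (-1.28 ± 0.08, adjusted p = 2.78e-12). Feedback genes of the ERK pathway, through which PEA3 factors are activated, gave 4 rises and 4 falls among 16 (25% each, against 11.9% and 17.4% of all genes), and 2 rises without clone 2 replicate 2 or without control replicate 1. Dusp6, a phosphatase that inactivates ERK, had 405 and 419 CPM in clone 2, against 266 and 285 CPM in control (0.58 ± 0.05, adjusted p = 8.61e-10), and Spry1, a Sprouty inhibitor, had 80.8 and 77.6 CPM in clone 2, against 49.1 and 50.5 CPM in control (0.67 ± 0.07, adjusted p = 5.4e-08). Dusp5 had 86.6 and 85.8 CPM in clone 2, against 133 and 146 CPM in control (-0.69 ± 0.07, adjusted p = 1.63e-08), so that members of the same feedback class differed in direction. For Spry1 and Dusp5, 24.4% and 22.1% of the exons overlap a gene on the other strand.

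Among other regulators, Tgfbr3, the TGF-beta co-receptor betaglycan, had 2.52 and 2.95 CPM in clone 2, against 12.9 and 12.5 CPM in control (-2.21 ± 0.18, adjusted p = 3.78e-10). Of the Notch ligands Jag1 had 197 and 192 CPM in clone 2, against 124 and 124 CPM in control (0.65 ± 0.06, adjusted p = 6.98e-09), whereas Dll4 had 18.3 and 18.6 CPM in clone 2, against 35.6 and 36.3 CPM in control (-0.96 ± 0.10, adjusted p = 5.23e-08). The Jagged and Delta ligands named here thus moved apart. Txnip, an arrestin-domain protein that binds thioredoxin, had 95.4 and 95.5 CPM in clone 2, against 47.3 and 50.9 CPM in control (0.96 ± 0.08, adjusted p = 1.65e-09), with 19.4% of its exons overlapping a gene on the other strand. The short ETS motif AGGAAG, searched on both strands, was present in 40.4% of the promoters of genes at least 2-fold lower in clone 2, in 35.3% of those at least 2-fold higher, and in 33.2% of the promoters of all tested genes.

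The same clone and the same kind of control pools were also grown on plastic, and the counts of those libraries do not enter the 3D fold changes, although they share the estimate of the spread, the filter and the scaling. There 4661 genes passed the threshold (33.9%), of which 2596 were higher (18.9%) and 2065 lower (15%), with 216 at least 2-fold higher (1.57%) and 441 at least 2-fold lower (3.2%). The lean of the 2D calls to higher was not stable, with 2219 higher against 2410 lower among genes with at least 1 count, 2242 against 2324 without Gm26917 and Gm42418, and 1869 against 1885 with the median of each chromosome removed. Of the 1631 genes higher in 3D, 659 were also higher in 2D, which is 40.4% of the 3D genes and 25.4% of the 2D genes, and 119 were lower (7.30%). Of the 2392 genes lower in 3D, 931 were also lower in 2D, which is 38.9% of the 3D genes and 45.1% of the 2D genes, and 280 were higher (11.7%). Among changes of at least 2-fold, 128 of 243 falls in 3D were falls of that size in 2D (52.7%), against 37 of 145 rises (25.5%). Across all genes the log2 fold changes in the 2 formats had a Pearson correlation of 0.325, or 0.307 without chromosome 1, given as a description because genes are not independent replicates.

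The difference between formats was itself called for 3059 genes (22.2%), of which 1022 had a more positive value in 3D (7.43%) and 2037 a more negative one (14.8%), with 267 (1.94%) and 134 (0.974%) differing by at least 2-fold in these directions. This split was 1231 against 1577 when the noncoding transcripts Gm26917 and Gm42418 were left out before scaling, and the count was 1884 without clone 2 3D replicate 1 and 1968 without control 3D replicate 2. Culture format, collagenase treatment and the count table change together between 3D and 2D and cannot be told apart. Sparc was lower in both formats but much more so in 3D, since on plastic it had 19.0 and 20.3 CPM in clone 2, against 105 and 102 CPM in control (difference between formats -3.01 ± 0.15, adjusted p = 1.96e-13).

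Interferon effectors differed between formats in the same direction wherever the test was passed. In 2D 18.9% of all genes rose and 15% fell, and 7.43% of all genes had a more positive value in 3D. Of the 52 effectors 6 rose and 14 fell in 2D, with a median of -0.17. The difference between formats was called for 19 of the effectors, all of them more positive in 3D and none on chromosome 1. Oasl2, for example, was higher than control in 3D (1.14) and lower in 2D (-1.12), with a difference of 2.26 and an adjusted p of 7.44e-05. The 18 interferon signalling genes did not share this pattern, since 5 rose and 2 fell in 2D, with a median of 0.117. Their difference between formats had a median of -0.00273 and was called for 2 genes, both more positive in 3D. The complement and acute phase genes C3 and Cp rose in 3D and fell in 2D. On plastic C3 had 1.52 and 1.56 CPM in clone 2, against 7.13 and 6.41 CPM in control (-2.13), which gives a difference between formats of 3.30 ± 0.21 (adjusted p = 1.89e-11), and Cp differed by 2.80 (adjusted p = 3.05e-15).

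Division genes went the other way. Over all genes 18.9% were higher and 15% lower in 2D, and 14.8% had a more negative value in 3D. In 2D 15 of 22 mitosis genes were higher in clone 2 and none lower, with a median of 0.18. The difference between formats was called for 21 of the 22, all more negative in 3D, and for 20 of 21 without chromosome 1. Of the 23 replication genes 8 were higher and 6 lower in 2D, and 18 had a more negative value in 3D while 1 had a more positive one. Without chromosome 1, 8 of the 21 were higher and 4 lower in 2D, and 16 were more negative in 3D. Cdkn1a was lower than control in 3D (-0.71) but higher in 2D, with 2.55 and 4.20 CPM in clone 2, against 0.559 and 0.944 CPM in control (2.11), which gives a difference of -2.82 ± 0.36 (adjusted p = 2.99e-06). Ribosomal protein genes were higher in 2D in 24 of 38 cases and lower in 2, and 21 had a more negative value in 3D, or 20 of 37 without chromosome 1. Genes of hypoxia and glycolysis were higher in 2D in 16 of 27 cases and lower in 1, with 16 more negative in 3D. Of 34 oxidative phosphorylation genes 22 were more negative in 3D, and 16 of 28 without chromosome 1. List counts in 2D and for the difference between formats were taken with the main scaling only. The split of all calls changed with the settings given above.

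The remaining genes with the largest differences between formats were Neurl3 (4.25 ± 0.46), a ubiquitin ligase gene on chromosome 1 that on plastic had 0.0542 and 0.284 CPM in clone 2, against 6.64 and 5.4 CPM in control, and Bicdl2 (3.03), Gpnmb (3.02) and Robo1 (3.02) on the positive side. On the negative side Mfsd4a (-2.99 ± 0.86, adjusted p = 0.0135) lost its call without clone 2 2D replicate 1 (adjusted p = 0.0526) and without control 2D replicate 1 (-2.07, adjusted p = 0.111), and 23.9% of its exons overlap a gene on the other strand. The proliferin genes Prl2c2 (-2.78) and Prl2c3 (-2.44), whose reads cannot be told apart with certainty, were lower than control in 3D (-2.67 and -2.26) and did not pass the test in 2D (0.11, adjusted p = 0.899, and 0.17, adjusted p = 0.288), and without clone 2 2D replicate 1 the value of Prl2c2 was -1.85 (adjusted p = 0.0670).

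Set directly against clone 1 in collagen, clone 2 differed in 7553 genes (54.9%), with 3633 higher (26.4%) and 3920 lower (28.5%), and 922 at least 2-fold higher (6.7%) and 534 at least 2-fold lower (3.88%), so the 2 knockout clones differed from each other in more genes than clone 2 differed from control. Cavin2, a component of caveolae, had 0.455 and 0.584 CPM in clone 2, against 58.3 and 54.9 CPM in clone 1 (-6.76), and the proprotein convertase gene Pcsk6 had 0.490 and 0.328 CPM in clone 2, against 38.6 and 40.5 CPM in clone 1 (-6.57). Tnxb had 0.245 and 0 CPM in clone 2, against 13.5 and 13.6 CPM in clone 1, and Pmp22 had 0.210 and 0.0365 CPM in clone 2, against 12.7 and 11.98 CPM in clone 1. Together with Sparc these were the genes furthest below clone 1.

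Conversely, Gpc4, a glypican, had 34.0 and 33.5 CPM in clone 2 and no count in either clone 1 library, where a count of 0 allows up to 0.114 and 0.0966 CPM. Zfp518b had 27.3 and 29.1 CPM in clone 2 and Rasef 25.3 and 25.4 CPM, and neither had a count in clone 1. Fam111a had 14.3 and 13.8 CPM in clone 2, against 0.0380 and 0.0644 CPM in clone 1, and Acsl6 had 13.6 and 15.4 CPM in clone 2, against 0.0380 and 0.129 CPM in clone 1. These 5 genes were detected in every clone 2 library, and the high end of the contrast therefore reflects values near 0 in clone 1. At the low end, described before, the low values were those of clone 2.

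The gene groups separated the clones as well, where 26.4% of all genes were higher and 28.5% lower in clone 2 than in clone 1. Of 52 interferon effectors 43 were higher in clone 2 than in clone 1 and 1 was lower, with a median of 1.41, and without chromosome 1 the count was 41 higher of 49 and none lower. Set against the same control libraries, which both comparisons share, clone 2 had 29 higher and 3 lower with a median of 0.42, and clone 1 had none higher and 36 lower with a median of -1.01, where 22% of all genes were called higher and 23% lower in clone 1. Ddx60, for example, stood at 1.09 in clone 2 and at -2.40 in clone 1. Of 23 replication genes 21 were lower in clone 2 than in clone 1 and none higher, and of 22 mitosis genes 18 were lower and none higher. Of 21 genes of the ATF4 list 18 were lower in clone 2 than in clone 1 and 1 was higher. Without chromosome 1 the counts of lower genes were 19 of 21 for replication, 17 of 21 for mitosis and 17 of 20 for the ATF4 list. Clone 1 itself stood above control in part of these lists. It had 12 replication genes higher and 2 lower, 14 mitosis genes higher and 3 lower, and 12 genes of the ATF4 list higher and 4 lower.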

How the data were processed

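The authors deposited raw counts per gene in a table for each culture format. Per the submitters' processing notes, reads were checked with FastQC 0.11.9, aligned to mm10 with STAR 2.7.9a and counted with featureCounts, and the strand setting of the counting is not given in the sources used here. The tables were joined by symbol, genes with low counts were removed with filterByExpr (minimum count 10, minimum total 15), which kept 13763 of 31017, and edgeR 4.0.16 (R 4.3.3) fitted a mean for each of 6 groups over all 12 libraries with TMM scaling and its quasi-likelihood test (6 residual degrees of freedom). P-values were adjusted by Benjamini-Hochberg over all genes tested, with a threshold of 0.05. CPM are scaled by TMM, except the marker sums, which use total counts alone. GENCODE M21 placed 13631 genes (99.04%).

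The members and gene lists were chosen with earlier results of these data known. Named genes are the PEA3 genes, the 12 largest rises and falls, the 5 largest on each side of the difference between formats and of clone 2 against clone 1, genes nearly absent from either group, and up to 4 genes a list with the smallest p. Genes ranked by size were called, had a mean of at least 5 CPM and had no provisional symbol. Groups without overlap were required too, except for the difference between formats. Same-numbered libraries did not deviate together (correlations from -0.045 to 0.022), so the numbers do not pair them. Replicates differed by more than counting noise. On simulated counts for clone 2 against control in 3D (13382 genes), the test recovered 89 of 100 changes of 1.5-fold and 99 of 100 of 2-fold, and called 7 of 13182 unchanged genes. The changed genes were drawn only from those with high mean counts and no chromosome was shifted, so recovery of scarce genes was not measured. Limits for a count of 0 are 3 counts of the library and cover counting error only. Alternatives were DESeq2 1.42.0, other scaling, filters and fits, centred chromosomes, and each library left out. Results for a few genes are not reported here, and these genes are left out of the counts of named genes.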

Additional observations from a re-analysis of the deposited data

Results flagged for a closer look

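The difference of clone 2 from control was compared between formats by a test of the difference itself (adjusted p under 0.05 by edgeR's quasi-likelihood test), and 114 of the 239 named genes passed it. Of all genes tested 22.2% passed. Many of the named genes were chosen for a large difference or a small p, so their share partly follows from the choice. Values are log2 fold changes in 3D minus those in 2D. Culture format, collagenase treatment and the count table change together here, and no explanation was tested.

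Over all genes, 119 of 1631 called higher in 3D were lower in 2D (7.30%), and 280 of 2392 called lower in 3D were higher (11.7%). In 36 of the named genes clone 2 was called on opposite sides of control in the 2 formats. Those higher than control in 3D and lower in 2D were Gpnmb (3.02), Ifit1 (2.97), C3 (3.30), Bicdl2 (3.03), Robo1 (3.02), Irf9 (1.06), Ddx58 (0.94), Oasl2 (2.26), Cxcl16 (0.91), Vcam1 (1.11), Cp (2.80), St14 (0.53), Cldn3 (1.03), Lss (0.87), Mvd (0.79), Acly (0.34), Slc39a14 (0.46) and Mmp9 (1.42). Those lower in 3D and higher in 2D were Mfsd4a (-2.99), Cdkn1a (-2.82), Serpinb5 (-1.44), Serpinb6a (-0.72), Lama3 (-1.30), Fth1 (-0.79), Arrdc3 (-1.47), Aen (-0.67), Actg1 (-0.64), Tpm4 (-0.57), Actb (-0.48), Id2 (-1.88), Dll1 (-1.10), Areg (-1.11), Ccnb1 (-0.52), Ccna2 (-0.50), Ehd2 (-0.44) and Krt8 (-0.56). For 5 of the 36 the call in 3D was lost under at least 1 setting. Ehd2 (adjusted p from 0.0916 to 0.13) and Bicdl2 (0.0714 to 0.176) lost it with any 1 of the 4 libraries left out, and Bicdl2 also under DESeq2's Wald test. Mvd lost it without clone 2 replicate 2 and without control replicate 1 (highest adjusted p 0.123), and Lss and Mfsd4a lost it with the median of each chromosome removed.

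The PEA3 genes and the genes named for the size of their change gave further differences without opposite calls. The difference was positive for Gbp9 (1.37), Adgrl3 (0.91), Ptpn13 (0.70), Iqgap2 (1.25), Neurl3 (4.25) and Etv4 (0.57), and negative for Sparc (-3.01), Prl2c2 (-2.78), Prl2c3 (-2.44) and Etv1 (-0.35).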

How the results depend on the processing

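For clone 2 against control in 3D 4023 genes were called. With the spread taken from the 3D libraries alone the count was 6440, from clone 2 and control in 3D alone 6538, and among genes without overlap 2599. Leaving out each library gave 2429 to 2590, DESeq2's Wald test 3365, centring the chromosomes 3274, and calls of at least 2-fold 388. For clone 2 against control in 2D (4661) the count was 2990 without overlapping genes, 657 at 2-fold, and 3741 to 4233 with each library left out. For the difference between formats (3059) it was 2006 without overlapping genes, 401 at 2-fold, and 1884 to 3103 with each library left out. For clone 2 against clone 1 in 3D (7553) it was 4748 without overlapping genes, 1456 at 2-fold, and 6043 to 6262 with each library left out. A replicate block, for numbers that name libraries without pairing them, gave 3907, 4588, 2949 and 7469 calls.

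Over the named genes and settings, 3237 values kept their direction and call, 129 lost the call, 14 gained it and 19 changed sign. Removing each chromosome's median turned chromosome 1 genes positive: Elk4 (0.0832), Elf3 (0.0172), Ddr2 (0.0854), F11r (0.19), Acsl3 (0.10), Bmpr2 (0.10), Fzd7 (0.0260), Fzd5 (0.15), Rpl7 (0.15) and Fn1 (0.0452), since their falls were smaller than that median. The other reversals were mt-Nd4 (0.0221 without control 3D replicate 1, range -0.235 to 0.0221 over libraries left out), mt-Nd6 (-0.0480 without control 3D replicate 2, range -0.0480 to 0.290), Csf1r (-0.0477 without clone 2 3D replicate 2, range -0.0477 to 0.907) and Cd68, which gave 0.0069 with DESeq2's size factors, 0.0060 with its Wald test, 0.010 without Gm26917 and Gm42418, 0.0015 without overlapping genes, 0.0863 without clone 2 3D replicate 2 and 0.169 without control 3D replicate 1 (range -0.166 to 0.169 over libraries left out), and the cause was not tested. With 2 libraries a group, small differences depend on each library, and genes near the limit of 3 counts cannot be ranked.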
